A study of Mus musculus with 7 samples.

Results

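The pyruvate dehydrogenase complex and the enzymes that switch it on and off were followed in mouse liver with and without the histone deacetylase HDAC3. The group was set by gene name, not by a cut on measured values, but was chosen with earlier results of these data known. It holds the 4 pyruvate dehydrogenase kinases (Pdk1, Pdk2, Pdk3 and Pdk4), the catalytic subunits of the 2 phosphatases (Pdp1 and Pdp2) and 4 subunits of the complex itself (Pdha1, Pdhb, Dlat and Pdhx). All 10 names were found, each at 1 probe set that carries no other gene symbol, among 19933 genes measured. Livers came from C57BL/6 male mice aged 4 months that were kept on chow, fed freely and killed at 5 pm, 10 h after lights on (ZT10), 2 weeks after virus injection. The HDAC3 knockout group (3 arrays) had received an adeno-associated virus carrying Cre recombinase. The rescued group (4 arrays) had received that Cre virus plus a second one encoding Flag-tagged wild-type HDAC3, so both groups carry Cre, and they differ in the second vector as well as in HDAC3. The targeted allele, the promoter that drives Cre or HDAC3 and the share of cells reached are not stated in the labels, and livers without a virus were not analysed here.

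The complex sits in the mitochondrial matrix and turns pyruvate into acetyl-CoA, the step that commits carbon from glucose to the citric acid cycle or to fat. Kinases of the PDK family phosphorylate its E1 alpha subunit, the product of Pdha1, and so turn it off, and the PDP phosphatases remove the phosphate and turn it on again. In fasting, liver and muscle raise Pdk4, which spares pyruvate for glucose production, and Pdk4 is a well-known target of the fatty acid receptor PPAR alpha. All values below are transcript levels and say nothing of protein, phosphorylation or flux.

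Of the 10 genes, 2 passed an adjusted p under 0.05 and both were higher in the knockout livers: the kinase gene Pdk4, 2.30-fold, and the E1 alpha gene Pdha1, 1.36-fold. None was lower. Over all genes 14.4% passed, 9.54% higher and 4.85% lower, by limma's moderated test with Benjamini-Hochberg adjustment. For the same 2 genes of the 10, all knockout arrays lay outside the rescued range, and this was so for 29.6% of all genes, 21.0% on the higher side. The median difference of the 10 was 0.11 on the log2 scale, beside 0.09 for all genes as deposited. After cyclic loess scaling these medians were 0.09 and 0.00. A count of 2 in 10 is close to these background shares as deposited, and 10 genes are few. Both genes were also called higher in the 3 other scalings tried, and 2.61% of all genes were called higher throughout.

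**Figure D1:**
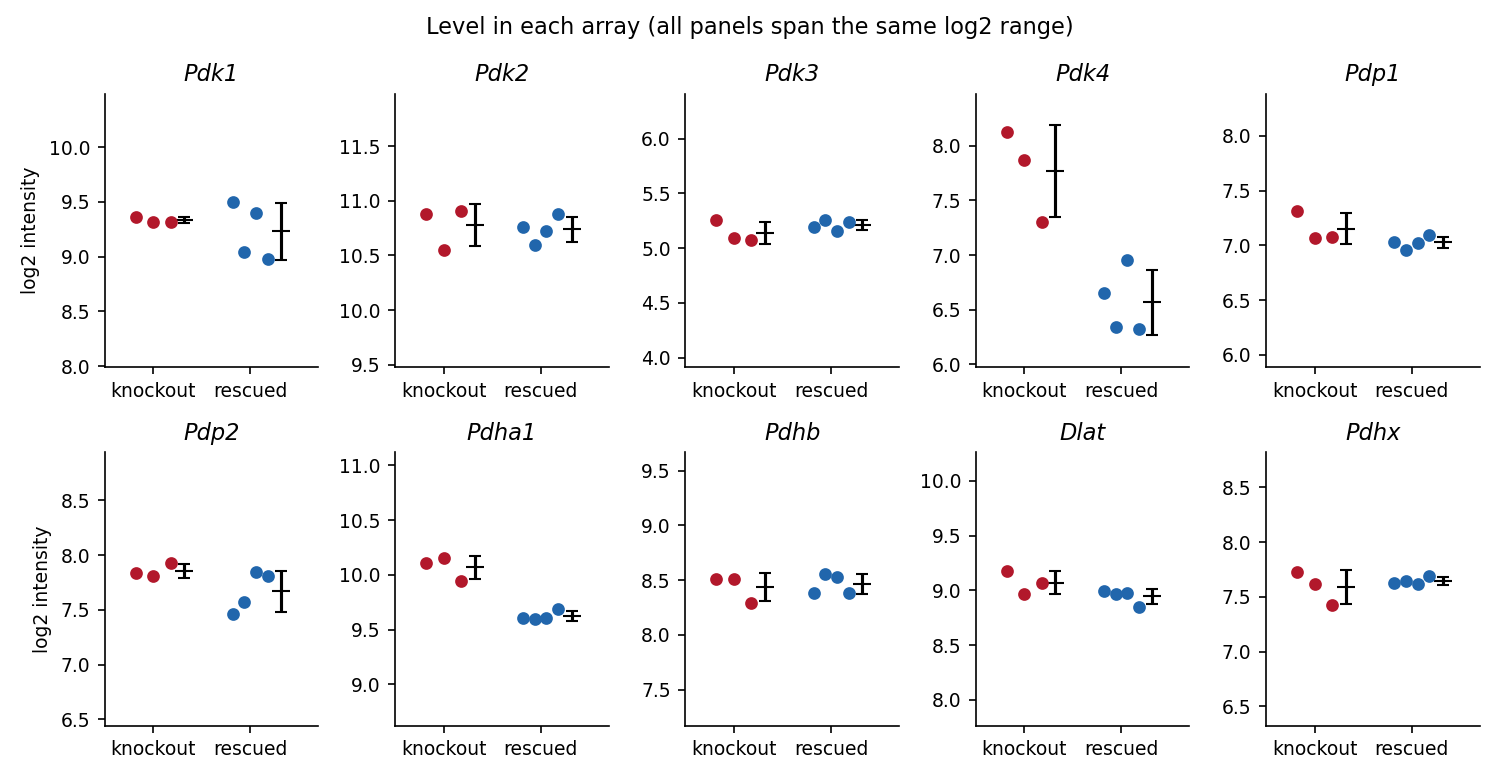
Log2 intensity of the 10 genes in each of the 3 knockout arrays (red) and 4 rescued arrays (blue), with the mean and SD in black beside each group. The groups separate for Pdk4 and Pdha1 and overlap for the other genes.

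The 250 bases before the annotated start of transcription are shown for both genes that rose and, beside them, for Pdk2, another kinase gene of the group, which did not pass the test. They are RefSeq sequences of build GRCm38.p6, written 5′ to 3′ on the gene's strand (minus for all of them), and capitals mark CpG dinucleotides, which cluster in the promoters of broadly expressed genes. For Pdk2 the more upstream of its 2 annotated starts is shown. The windows lie at chr6:5496279-5496528 for Pdk4, chrX:160138431-160138680 for Pdha1 and chr11:95041372-95041621 for Pdk2.
Pdk4: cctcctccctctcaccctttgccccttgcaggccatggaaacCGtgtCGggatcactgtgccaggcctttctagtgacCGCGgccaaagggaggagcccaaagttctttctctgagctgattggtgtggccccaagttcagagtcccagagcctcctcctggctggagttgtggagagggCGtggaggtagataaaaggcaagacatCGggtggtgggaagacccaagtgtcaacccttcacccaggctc
Pdha1: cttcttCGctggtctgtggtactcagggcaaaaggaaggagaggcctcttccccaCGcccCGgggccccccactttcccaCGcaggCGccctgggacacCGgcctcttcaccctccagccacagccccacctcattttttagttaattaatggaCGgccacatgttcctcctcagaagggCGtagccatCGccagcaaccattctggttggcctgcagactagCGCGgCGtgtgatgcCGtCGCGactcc
Pdk2: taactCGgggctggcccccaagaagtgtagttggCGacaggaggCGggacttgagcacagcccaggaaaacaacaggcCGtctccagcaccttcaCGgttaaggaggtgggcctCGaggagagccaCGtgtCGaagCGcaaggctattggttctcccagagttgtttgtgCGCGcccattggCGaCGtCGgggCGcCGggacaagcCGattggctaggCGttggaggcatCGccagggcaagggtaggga

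The Pdk4 window holds 6 CpG dinucleotides, the median of all 32851 promoter windows in the RefSeq table, while the Pdha1 window holds 15 and the Pdk2 window 19. Windows were found for 9 of the 10 genes, 11 windows in all. CpG counts were 11 to 29 in the windows of the other genes, apart from the second start of Pdk1 with 2. The nuclear receptor half-site AGGTCA was in none of the 11 windows on either strand, against 14.0% of all windows. The same holds for 2 such half-sites spaced by 1 base (AGGTCANAGGTCA, which contains the half-site, 0.0335% of all windows), the forkhead motif TGTTTAC (3.17%) and the TATA box TATAAA (12.4%). The CCAAT box was in 5 of the 11 windows, Pdk4 and Pdk2 included, against 33.8% of all windows. The GC box GGGCGG was in 6, none of them of Pdk4, Pdha1 or Pdk2, against 32.7%. These are matches of letters in short windows, and no binding was measured.

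The Hdac3 transcript itself was at 8.93, 8.75 and 9.07 in the knockout arrays, against 9.23, 9.45, 9.55 and 9.38 in the rescued arrays (log2 intensity). The highest knockout value was below the lowest rescued value, with a difference of -0.48 (SE 0.10, adjusted p = 0.0124 in limma). Without knockout replicate 1, which leaves fewer arrays, the difference was -0.49 and the adjusted p was 0.0500132. The probe set may also read the vector's transcript, so the value checks the labels only in part. Median intensities over all probe sets were 105 to 111 in the knockout arrays and 96.3 to 102 in the rescued arrays. This offset moves counts over all genes. As deposited 1901 were higher and 966 lower, against 899 and 1060 after quantile normalization, 672 and 1801 after median centring, and 873 and 1068 after cyclic loess. The share of genes called higher was then 4.51%, 3.37% and 4.38%. Both Pdk4 and Pdha1 were called in each of these scalings. The hepatocyte markers held no called gene among 7 measured, and their summed intensity was 77046 to 79024 in knockout and 74433 to 77958 in rescued livers. All 7 lay near the top of the measured range (group means 13.10 to 13.80), and the share of hepatocytes was not measured.

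Among the kinases, Pdk4 stood at 8.13, 7.87 and 7.30 in the knockout arrays, against 6.65, 6.34, 6.95 and 6.32 in the rescued arrays (log2 intensity). Every knockout array was above every rescued array, and both groups were widely spread, so that the lowest knockout array and the highest rescued array came close. The mean was 7.77 ± 0.42 (SD, n = 3) for the knockout arrays and 6.57 ± 0.30 (SD, n = 4) for the rescued arrays. The difference was 1.20 (SE 0.19, 95% interval 0.78 to 1.62), with adjusted p = 0.00472 in limma. Only 0.191% of the genes tested differed by more in either direction. With each array left out in turn the difference ran from 1.02, without knockout replicate 1, to 1.43, without knockout replicate 3, and the call held each time (highest adjusted p = 0.0319). As a rough measure of distance from background, the Pdk4 level lay above 99.7% of 1194 olfactory and vomeronasal receptor genes in knockout livers and above 98.4% of them in rescued livers.

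The other kinases did not pass the test. Pdk2, the kinase isoform found in most tissues and abundant in liver, was at 10.87, 10.55 and 10.91 in the knockout arrays, against 10.76, 10.60, 10.72 and 10.88 in the rescued arrays. The groups overlapped fully, with a difference of 0.04 (SE 0.10, 95% interval -0.18 to 0.26, adjusted p = 0.794 in limma). Pdk1, best known as the kinase gene that rises in low oxygen, was at 9.36, 9.32 and 9.32 in knockout arrays and at 9.50, 9.04, 9.40 and 8.98 in rescued arrays. Its knockout values were close together and fell inside the wide range of the rescued values, with a difference of 0.10 (95% interval -0.16 to 0.36, adjusted p = 0.546 in limma). Pdk3 read 5.25, 5.09 and 5.07 in knockout arrays, against 5.19, 5.25, 5.16 and 5.24 in rescued arrays. These are low values, above 73.5% of the receptor genes in knockout and 80.2% in rescued livers, so expression of Pdk3 in these livers is not shown. Its difference was -0.07 (95% interval -0.23 to 0.08), and -0.22 after quantile normalization (adjusted p = 0.0515 in limma).

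**Figure D2:**
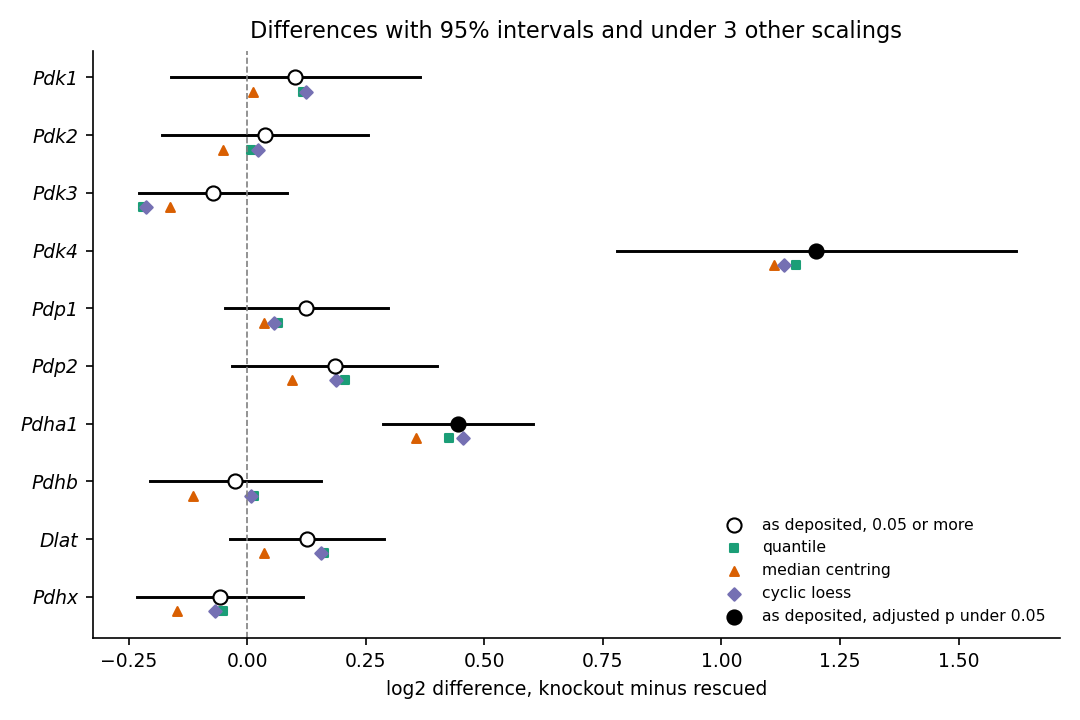
Log2 difference, knockout minus rescued, of each gene, with its 95% interval (line) and the estimate under 3 other scalings of the arrays (coloured symbols). Filled circles mark adjusted p under 0.05. The intervals of Pdk4 and Pdha1 lie above 0, and the intervals of the other 8 include it.

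The change of Pdk4 was set directly against that of other regulators as a log2 ratio within each array, which cancels any constant offset between arrays. Relative to Pdk1 and Pdk2 it was larger by 1.10 (SE 0.22) and 1.16 (SE 0.32). No ratio is given for Pdk3, whose level is close to background. Relative to the phosphatase genes Pdp1 and Pdp2 it was larger by 1.08 (SE 0.24) and 1.01 (SE 0.30). In these 4 ratios every knockout array lay above every rescued array. Each gave p = 0.0571 in a two-sided exact permutation test, the smallest that 3 against 4 arrays allow, also after adjustment over the 8 ratios tested, so a threshold of 0.05 could not be reached. Pdk4 was put on top because it had passed the test above, so these ratios describe the size of its change and are no separate evidence for it.

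The phosphatase genes, whose products reactivate the complex, did not pass the test. Pdp1, the calcium-stimulated form, was at 7.31, 7.07 and 7.07 in knockout arrays, against 7.03, 6.96, 7.02 and 7.09 in rescued arrays. Knockout replicate 1 was high and the other knockout arrays lay inside the rescued range, with a difference of 0.12 (95% interval -0.05 to 0.30, adjusted p = 0.263 in limma). Pdp2, known in rat as a form abundant in liver, was at 7.83, 7.81 and 7.92 in knockout arrays and at 7.46, 7.57, 7.85 and 7.81 in rescued arrays. The knockout values were close to the upper rescued values, and the difference was 0.19 (95% interval -0.03 to 0.40, adjusted p = 0.193 in limma). The upper bounds of both intervals lie below the lower bound for Pdk4.

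Of the subunits of the complex, Pdha1, which encodes the E1 alpha subunit and carries the regulatory phosphorylation sites, was at 10.11, 10.15 and 9.95 in the knockout arrays, against 9.61, 9.60, 9.61 and 9.69 in the rescued arrays. The groups were well separated relative to their spread, with means of 10.07 ± 0.11 (SD, n = 3) for knockout and 9.62 ± 0.04 (SD, n = 4) for rescued arrays. The difference was 0.44 (SE 0.07, 95% interval 0.29 to 0.60), with adjusted p = 0.00501 in limma, and 3.51% of genes differed by more. With each array left out it ran from 0.40 to 0.51 and stayed called (highest adjusted p = 0.0262). Pdhb, the E1 beta subunit that pairs with the product of Pdha1, was at 8.51, 8.51 and 8.29 in knockout arrays, against 8.38, 8.55, 8.53 and 8.38 in rescued arrays. These overlapped, with a difference of -0.02 (95% interval -0.21 to 0.16, adjusted p = 0.842 in limma).

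Dlat, the E2 acetyltransferase of the complex's core, was at 9.18, 8.97 and 9.06 in knockout arrays and at 8.99, 8.96, 8.97 and 8.85 in rescued arrays. The ranges overlapped at their edges, with a difference of 0.13 (95% interval -0.04 to 0.29, adjusted p = 0.235 in limma). Pdhx, the E3-binding protein that anchors the last enzyme to the core, was at 7.72, 7.62 and 7.42 in knockout arrays, against 7.62, 7.65, 7.62 and 7.69 in rescued arrays. Its knockout values lay on both sides of the rescued ones, with a difference of -0.06 (95% interval -0.23 to 0.12, adjusted p = 0.612 in limma). As within-array ratios, Pdha1 rose relative to Pdhb by 0.47 (SE 0.08), to Dlat by 0.32 (SE 0.10) and to Pdhx by 0.50 (SE 0.04), with no overlap between the groups in any of these 3 ratios. Each had p = 0.0571 in the exact permutation test, again the smallest possible, and Pdha1 too was put on top because it had passed. The E3 subunit gene Dld, which the complex shares with its sister complexes, averaged 9.52 ± 0.14 (SD, n = 3) over knockout arrays and 9.39 ± 0.06 (SD, n = 4) over rescued arrays and did not pass (adjusted p = 0.228 in limma). Nor did Pdha2, the testis form of E1 alpha, at 4.24 ± 0.06 in knockout and 4.10 ± 0.06 in rescued arrays (adjusted p = 0.178 in limma). These levels lie above only 41.3% of the receptor genes in knockout and 40.4% in rescued livers. Expression of Pdha2 in these livers is thus not shown.

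Knockout replicate 3 had the lowest value of its group for Pdk1, Pdk3, Pdk4, Pdha1, Pdhb and Pdhx and the highest for Pdk2 and Pdp2. Its median intensity, 105, was the lowest of the knockout arrays but close to the 106 of replicate 2. The part of this offset in its readings was not tested. In whole liver, fewer cells of a type and less RNA per cell cannot be told apart.

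**Figure D3:**
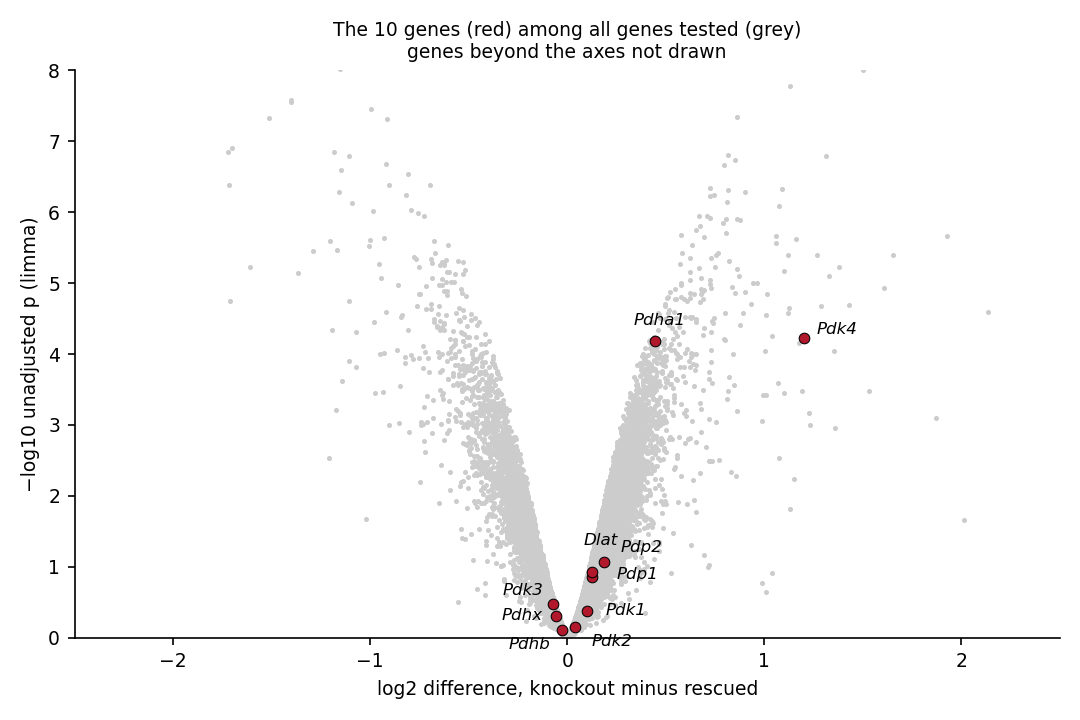
Each grey point is 1 of the genes tested, with its log2 difference (knockout minus rescued) and the negative log10 of its unadjusted p in limma, and the 10 genes are in red. Pdk4, at 1.20, lies far out among the rises, Pdha1, at 0.44, lies on the upper flank of the rises, and the other 8 lie near the bottom.

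Genes around the complex were counted in 8 further lists, which hold 86 measured genes besides the 10. Of these 23 were higher and 1 lower, and 16 and 1 were called in every scaling. Of all genes 9.54% were called higher and 4.85% lower as deposited, and 2.61% and 4.06% in every scaling. Of the 23 higher, 9 were PPAR alpha targets, a list known from earlier results of these data to be higher.

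Upstream of the complex, the list of pyruvate sources and transport held 3 higher members of 13 measured and none lower, and 1 of the 3 was called in every scaling. The median was 0.12 as deposited and 0.02 after cyclic loess, beside 0.09 and 0.00 for all genes. Slc16a7, a transporter of pyruvate and lactate across the cell membrane, averaged 11.34 ± 0.06 in knockout and 10.93 ± 0.08 in rescued livers (SD, n = 3 and 4), 1.33-fold higher with adjusted p = 0.00730 in limma. It was called in every scaling and with each array left out. Mpc1, a subunit of the carrier that brings pyruvate into mitochondria, was 1.24-fold higher (adjusted p = 0.0220 in limma), and the mitochondrial alanine aminotransferase gene Gpt2, which makes pyruvate from alanine, 1.21-fold (adjusted p = 0.0382 in limma). Mpc1 was lost after median centring, and Gpt2 was called in none of the 3 other scalings. The call of Mpc1 needed each of 4 arrays, knockout replicates 1 and 2 and rescued replicates 2 and 3 (differences 0.27 to 0.38 over all arrays left out), and that of Gpt2 needed these and rescued replicate 4 (0.23 to 0.31).

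Downstream, 4 of 9 genes for other fates of pyruvate and acetyl-CoA were higher and none lower, beside 9.54% higher of all genes. The list median was 0.23 as deposited and 0.20 after cyclic loess, beside 0.09 and 0.00 for all genes. Citrate synthase Cs, which takes up the acetyl-CoA that the complex makes, was at 11.27, 11.03 and 10.74 in knockout arrays, against 10.42, 10.37, 10.33 and 10.42 in rescued arrays. It was separated without overlap and 1.55-fold higher (adjusted p = 0.00653 in limma). Carnitine acetyltransferase Crat, which buffers mitochondrial acetyl-CoA, was 1.60-fold higher (adjusted p = 0.00229 in limma). Both were called in every scaling and with each array left out. The acetyl-CoA synthetase gene Acss2 (difference 0.67) and the pyruvate carboxylase gene Pcx, whose product sends pyruvate toward glucose (0.24), were called as deposited but in none of the 3 other scalings. With arrays left out Acss2 was called only without rescued replicate 1 (range 0.55 to 0.85), and Pcx only without knockout replicate 1 (range 0.20 to 0.30).

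Of 13 citric acid cycle genes 4 were higher and none lower, 2 of them in every scaling. Of all genes 9.54% were called higher as deposited and 2.61% in every scaling. The list median was 0.11 as deposited and 0.10 after cyclic loess, beside 0.09 and 0.00 for all genes. Suclg1, a succinyl-CoA ligase subunit, was 1.37-fold higher (adjusted p = 0.0137 in limma), but not called without knockout replicate 1 (0.40, adjusted p = 0.0617). The mitochondrial isocitrate dehydrogenase gene Idh2 was 1.35-fold higher (adjusted p = 0.00617 in limma) and was called with each array left out. Sdhd and Suclg2 passed as deposited with smaller differences of 0.25 and 0.24. Sdhd was called after cyclic loess but not after quantile normalization or median centring, and Suclg2 in none of the 3 other scalings. With arrays left out Sdhd kept its call only without knockout replicate 3 (range 0.22 to 0.30). The call of Suclg2 needed knockout replicates 2 and 3 and rescued replicates 2, 3 and 4 (range 0.21 to 0.30).

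Among 9 genes of the sister 2-oxoacid dehydrogenase complexes, built on the same plan, 2 were higher and none lower. Their median was 0.02, beside 0.09 for all genes. Ppm1k, the phosphatase that reactivates the branched-chain complex as Pdp1 and Pdp2 do for pyruvate dehydrogenase, was at 10.17, 10.13 and 10.22 in knockout arrays, against 9.46, 9.21, 9.64 and 9.47 in rescued arrays. The groups lay well apart, and the difference was 0.73 (SE 0.09, adjusted p = 0.00154 in limma), called with each array left out. Bckdhb, the E1 beta subunit of that complex, was 1.29-fold higher (adjusted p = 0.0166 in limma), and was not called without knockout replicate 1 (0.35, adjusted p = 0.0617). Of 11 genes for lipoate and thiamine, the cofactors of these complexes, 1 was lower and 1 higher. The iron-sulphur assembly gene Isca1 differed by -0.53 (adjusted p = 0.0261 in limma). Its call needed knockout replicates 1 and 2 and rescued replicates 2 and 3 (range -0.65 to -0.46). The gene has 2 probe sets that differ in direction, and with their mean the difference was -0.20 (adjusted p = 0.0822 in limma). The thiamine transporter gene Slc19a2 differed by 0.34 (adjusted p = 0.0309 in limma). Its call needed knockout replicates 1 and 2 and rescued replicates 2 and 4 (range 0.27 to 0.42), and was lost after median centring (0.25, adjusted p = 0.0784 in limma).

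**Figure D4:**
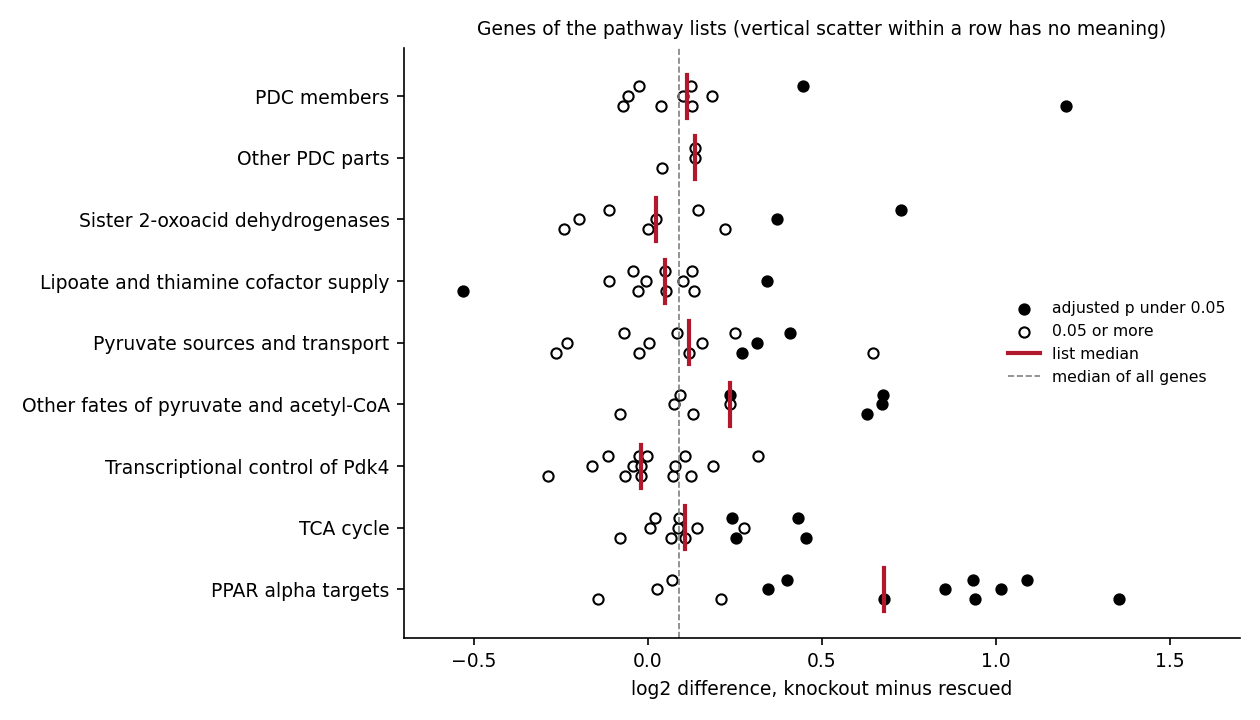
Log2 difference, knockout minus rescued, of each measured gene of the 10-gene group and of the 8 lists around it. Filled points have adjusted p under 0.05, red bars are list medians, and the dashed line is the median of all genes, 0.09. PPAR alpha targets have a median of 0.68, and the factors known to control Pdk4 a median of -0.02.

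Transcripts of 15 factors known to control Pdk4 were examined, and none passed the test in limma. At an unadjusted p under 0.05 there were 2 higher and 1 lower, beside 7115 of all 19933 genes in either direction. The median difference of the 15 was -0.02. The closest were Cebpb, at 8.88 ± 0.20 over knockout arrays and 8.57 ± 0.09 over rescued arrays (SD, n = 3 and 4, adjusted p = 0.0508 in limma), and Ppard, at 8.28 ± 0.07 over knockout and 8.09 ± 0.06 over rescued arrays (adjusted p = 0.0857 in limma). Cebpb passed in 4 alternative fits (lowest adjusted p = 0.0447 in limma, among genes above the median level), and Ppard passed after quantile normalization (0.22, adjusted p = 0.0491 in limma). Ppara, named here for its role although the naming rule does not pick it, averaged 11.16 ± 0.08 over knockout and 11.21 ± 0.06 over rescued arrays (adjusted p = 0.664 in limma). Of 13 measured PPAR alpha targets 9 were higher and none lower, all 9 in every scaling, with a median of 0.68. Of all genes 9.54% were called higher as deposited and 2.61% in every scaling. The list was known from earlier results of these data to be higher, so its count is no separate evidence. The part of PPAR alpha in the Pdk4 difference was not tested. The Pdk4 difference of 1.20 lay between those of the peroxisomal enzyme gene Ehhadh (1.09) and the fatty acid hydroxylase gene Cyp4a14 (1.35), the members with the largest differences. Cyp4a31 and the pantetheinase gene Vnn1 followed with 1.01 and 0.94. The 4 targets that were not called, given here beyond the naming rule, were Cpt1a (-0.14), Angptl4 (0.03), Fgf21 (0.21) and Acot1 (0.07). Their adjusted p ran from 0.0850 to 0.840 in limma.

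The genes whose values over the 7 arrays were most like those of Pdk4, after each gene was centred on its own mean, were Hmgcs1, Gask1a and Acaa1b. Their root mean square distances from Pdk4 were 0.180, 0.204 and 0.204 on the log2 scale. Hmgcs1, a cholesterol synthesis gene, read 11.08, 10.79 and 10.60 in knockout arrays, against 10.06, 9.52, 10.32 and 9.42 in rescued arrays. It shares with Pdk4 the order of the arrays within both groups: knockout replicate 1 is highest and rescued replicate 4 lowest. Acaa1b, a peroxisomal thiolase gene, read 11.56, 11.73 and 11.08 in knockout arrays, against 10.46, 10.18, 10.38 and 10.33 in rescued arrays. The genes nearest to Pdha1 were Rmi2, a subunit gene of a DNA repair complex (distance 0.0153), the autophagy gene Atg12 (0.0283) and Tex2 (0.0318). Distances were taken on the values as deposited and not in the other scalings. As deposited the group differences were 0.44 for Pdha1, 0.44 for Rmi2, 0.46 for Atg12 and 0.46 for Tex2. After cyclic loess they were 0.45, 0.29, 0.49 and 0.46, so the closeness of Rmi2 to Pdha1 did not hold there. Likeness is a description over 7 arrays that include the group difference, and it was not tested.

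**Figure D5:**
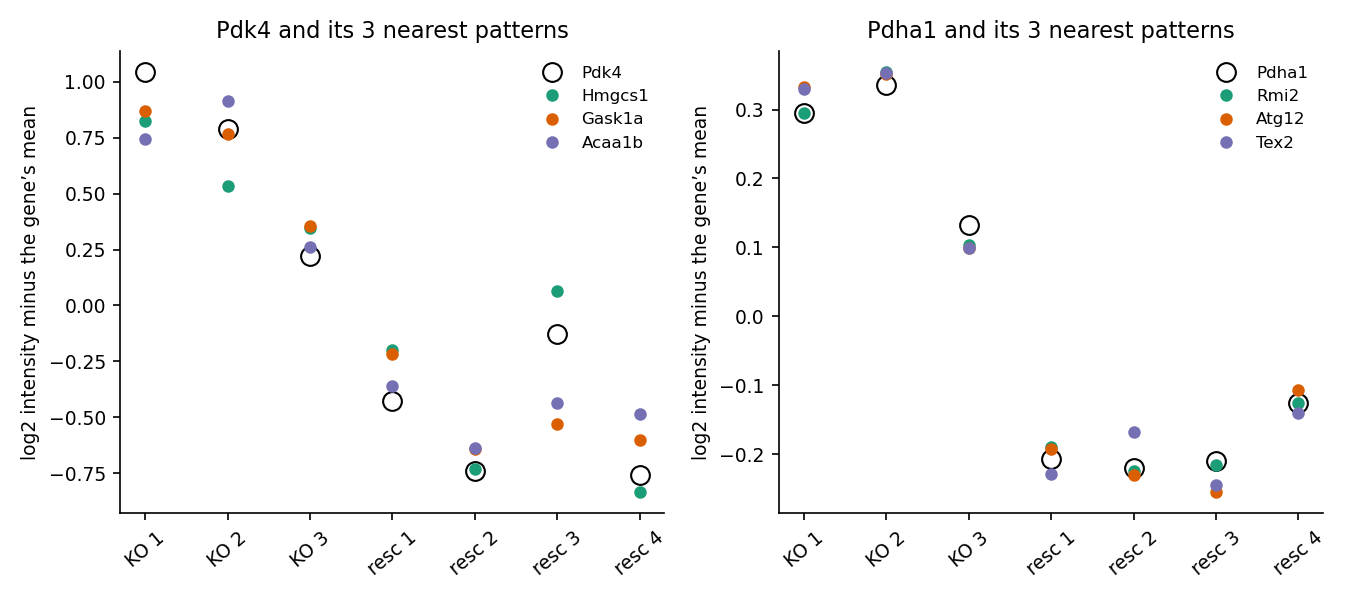
Log2 intensity minus the gene's own mean in each of the 3 knockout (KO) and 4 rescued (resc) arrays, for Pdk4 with its 3 nearest genes (left) and Pdha1 with its 3 nearest genes (right). The knockout arrays lie above the rescued arrays for all 8 genes, and replicates have no order.

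Muscle is known for high Pdk4, so markers of cells other than hepatocytes are given beside it. Of 8 striated muscle markers 1 was called higher, Acta1 (difference 0.32, adjusted p = 0.0384 in limma), and it was not called in every scaling. At an unadjusted p under 0.05, 5 of the 8 were higher and none lower. Their median difference was 0.22 as deposited and 0.09 after cyclic loess. Their summed intensity was 718 to 847 in knockout and 607 to 687 in rescued arrays. The 5 measured adipocyte markers held no called gene, with a median difference of 0.19 as deposited and 0.08 after cyclic loess, and sums of 360 to 427 in knockout and 331 to 356 in rescued arrays. Both lists thus had sums without overlap and higher in knockout livers, as had the medians of the arrays. The same held for cholangiocyte markers (513 to 584 against 445 to 492). Sums of endothelial markers (4083 to 4756 against 4908 to 5017) and erythroid markers (414 to 556 against 832 to 983) were lower without overlap. Macrophage, stellate cell and lymphocyte sums overlapped. Macrophage (8 measured), cholangiocyte (4) and lymphocyte markers (5) held no called gene in limma. At an unadjusted p under 0.05 there were 3 adipocyte, 2 cholangiocyte and 1 lymphocyte markers higher, and 1 macrophage marker lower. Of 6 endothelial markers 2 were lower (Clec4g and Fcgr2b), and of 6 stellate cell markers 1 was higher (Lrat) and 4 were at an unadjusted p under 0.05. None of these 3 genes was called in every scaling, and with arrays left out in turn Clec4g and Lrat were called in 1 of 7 fits each and Fcgr2b in 0. For called genes the background shares are those given above, 9.54% higher and 4.85% lower. These shares are no background for the unadjusted counts, which compare with 7115 of all 19933 genes, both directions together. Both measured erythroid markers are named here after their values were seen. Alas2, the heme synthesis enzyme of red cell precursors, differed by -1.15 (adjusted p = 0.00019 in limma), called in every scaling and with each array left out. Slc4a1, the anion exchanger of red cells, differed by 0.37 in the other direction and did not pass (adjusted p = 0.0535 in limma). The part of such cells in the differences of Pdk4 and Pdha1 was not tested.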

How the data were processed

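Liver RNA of 7 mice was read on Affymetrix Mouse Gene 1.0 ST arrays. The deposited table holds a linear intensity for each of 27541 probe sets and each array (5.41 to 17351). Per the submitters' processing notes, RMA and Partek made these intensity values. Versions, roles, the last scaling and the build are not stated. The labels call the arrays biological replicates.

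Log2 was taken and each gene was represented by its brightest row among the 21631 rows with 1 symbol (19933 genes, no filter). limma 3.58.1 (R 4.3.3; lmFit and eBayes, two-sided, no covariates) gave the tests, adjusted by Benjamini-Hochberg over all genes at 0.05, and the 95% intervals. The number of arrays limits the precision. On simulated data for this comparison (19933 genes, 200 changed, independent noise) the fit recovered 49% of 1.3-fold and 99.5% of 1.5-fold changes. In the real data 2867 genes were called, which makes the cut on unadjusted p less strict, and the simulation holds no offset between arrays. These shares thus check the fit and do not measure its power in the real data. The closing section gives the alternatives tried: scalings, a filter, uses of probe sets, spread and weights, a replicate block, arrays left out and thresholds. The text names the 10 members, Hdac3, up to 4 called genes a list by size (or 2 by p) and 3 nearest patterns of each called member. Members and lists were chosen with earlier results of these data known, and promoter motifs after the files were read. Same-numbered arrays did not deviate together throughout (correlations 0.15, 0.0028 and 0.0053), so numbers were not taken as pairs. Exact tests used scipy 1.17.1 and figures matplotlib 3.10.9.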

Additional observations from a re-analysis of the deposited data

Results flagged for a closer look

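Of 40 named genes, 4 had 1 rescued array far from the other 3 by Dixon's criterion, and chance flags about 1 in 20 groups. Pdha1 read 9.69 in rescued replicate 4 and 9.60 to 9.61 in the others, and without that array its difference was 0.47 with adjusted p = 0.0115 in limma. Ehhadh read 11.4044 in rescued replicate 4, against 11.04 to 11.09 in the others. Slc16a7 read 11.06 in rescued replicate 3, against 10.87 to 10.91. Cebpb read 8.425 in rescued replicate 1, against 8.59 to 8.62.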

How the results depend on the processing

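Pdk4 and Pdha1 were higher and called at 0.05 in all 16 alternative fits run for each. Adjusted p in limma ran from 0.00295 to 0.0319 for Pdk4 and from 0.00183 to 0.0262 for Pdha1. Thresholds of 0.01 and 0.1 were tried on the main fit only, where both genes passed. The alternative fits overlap. Each gene has 1 probe set, so other uses of probe sets kept the estimates at 1.20 and 0.44. The replicate block gave the same estimates as leaving out rescued replicate 4. No other gene of the 10 was called in any alternative. The small differences of 3 uncalled genes changed sign. Pdk2 was at -0.052 after median centring and ran from -0.027 to 0.151 with each array left out. Pdhb was at 0.0145 after quantile normalization and 0.0077 after cyclic loess, and ran from -0.062 to 0.0499 with an array left out. Pdhx ran from -0.125 to 0.0256. Counts over all genes moved far more. Against 1901 higher, there were 899 after quantile normalization, 672 after median centring, 873 after cyclic loess, 1032 among genes above the median level and 1233 with the replicate block. Median centring gave 1801 lower, against 966. With each array left out, 449 to 2199 were higher and 417 to 1064 lower. At a threshold of 0.01 there were 266 higher and 243 lower, and at 0.1 there were 3925 and 1603. The lists around the complex held 24 called genes, 11 at a threshold of 0.01. With the replicate block, where numbers are shared but do not pair the arrays, the differences were 1.12 for Pdk4 (adjusted p = 0.0110) and 0.47 for Pdha1 (adjusted p = 0.0123), and the list count was 21. The cause of these shifts was not tested, beyond fewer arrays or fewer genes where these were left out. Pdk3 is close to background, and no signal over background could be computed from the deposited values.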
